A study of Mus musculus with 53 samples.

Results

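The kinesin, dynein and dynactin motors are the proteins that pull chromosomes apart in mitosis and carry cargo along microtubules in axons. The members were all protein-coding genes of the mouse annotation GENCODE M21 whose symbols begin with Kif and a digit, Kifc, Klc and a digit, Dync, Dynl or Dctn, or equal Kifap3. The rule itself reads only symbols. The rule found 70 genes, of which 68 had a value, among 20230 protein-coding genes with a value. Dynlt1b and Dynlt1f had no value, so only their sequences are described here. The series sequenced RNA from 53 mouse libraries of 19 groups to ask how histone turnover acts on transcription in neurons and brain. The values used here are those of 1 group, cortex of C57bl/6 embryos at E16.5, untreated and with no transgene or other allele named, given as the authors' mean of 3 libraries in RPKM (reads per kilobase of gene and M reads in the library). The other 50 libraries are not analysed here, so no condition is compared with another. A mean has no SD, and no p-value is given anywhere below. The labels do not say whether the 3 libraries came from separate animals or pooled ones, nor the sex of the embryos.

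Kinesins are motors that mostly walk to the plus ends of microtubules, which in axons point away from the cell body, while cytoplasmic dynein walks to the minus ends and brings cargo back. Dynactin is the large complex that dynein needs for long runs. In the embryonic cortex dividing progenitors line the ventricle and use the mitotic kinesins, and the neurons they make migrate outwards and grow axons, for which they need the transport motors.

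The deposited values divide each gene's reads by the whole gene with its introns. Of 785 low values of multi-exon genes, 662 (84.3%) lay within 0.5% of the worth of 1 read in 1 library when the whole gene was taken as the length, and 35 of 1591 (2.2%) did so with exon length. The worth of 1 read was itself found from the whole-gene values and was not sought anew with exon length. The 2 shares therefore do not compare the lengths on equal terms, and the whole-gene reading rests on the 84.3%. Motor genes differ widely in introns, from Kif2b with a span of 2.24 kb to Kif26b with 410.1 kb. Levels of different genes are therefore given both as deposited RPKM and as RPM (reads per M reads) per kilobase of exon, here called the exon-based value. The latter takes all counted reads to lie in exons, which was not tested. The low values gave a summed depth of 187.7 M reads. A gene listed at 0 could still have had 3 reads, or 0.0160 RPM. The tissue label was checked with fixed markers. The cortical genes Neurod6, Tbr1 and Emx1 stood at 193.7, 24.4 and 1.82 RPKM. All 4 neuronal genes passed 1 RPKM (Tubb3 at 156.4, Dcx at 22.6, Map2 lowest at 5.02), and so did all 4 progenitor genes (Sox2 at 20.2, Eomes at 15.4, Pax6 lowest at 1.57). The level of 1 RPKM was reached by 31.6% of all protein-coding genes. Of the hindbrain genes Gbx2 stood at 0.00717 and En1 at 0.00454, and Hoxb4 and Hoxa5 were listed at 0. Of the microglial genes C1qa stood at 0.942, Csf1r at 0.352 and Cx3cr1 at 0.274 RPKM, and of the endothelial genes Cldn5 at 17.3, Kdr at 0.570 and Pecam1 at 0.133. Their part in the motor values was not tested.

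Of the 68 motor genes 36 reached 1 RPKM, where 31.6% of all protein-coding genes did. Their median was 1.55 RPKM, against 0.213 over all protein-coding genes, and 5 of them reached 10 RPKM, where 4.5% of all did. By the exon-based value, 55 reached 1 and 32 reached 10 per kilobase, where 54.0% and 20.8% of all did, with a median of 8.02 against 1.57. The 5 highest by deposited RPKM were the dynein light chain genes Dynll1 (46.8) and Dynll2 (30.8), the kinesin gene Kif21b (17.8), the dynactin gene Dctn2 (12.8) and the dynein heavy chain gene Dync1h1 (11.4). The 5 highest by exon-based value were Dynll2 (90.3), Dynlrb1 (88.0), Klc1 (84.4), Kif5c (82.1) and Kif21b (68.1). Dynll2, Kif21b and no other gene stood in both sets.

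**Figure D1:**
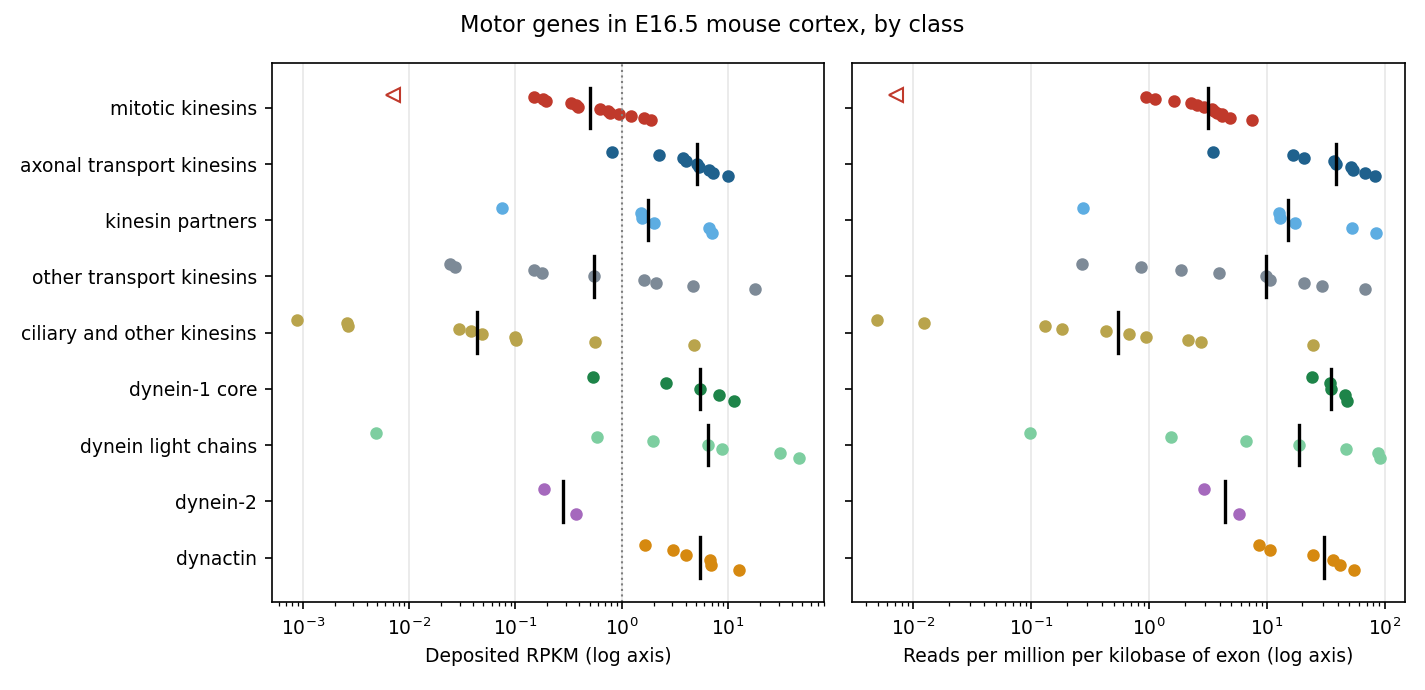
Level of each of the 68 motor genes by class, as deposited RPKM (left) and as RPM per kilobase of exon (right), both on log axes. Each point is 1 gene from the authors' mean of 3 libraries, black bars are class medians, the dotted line marks 1 RPKM, and the open triangle stands at the level that 3 reads would give for Kif2b, which was listed at 0. The mitotic median was 0.503 RPKM and the axonal one 5.15.

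The mitotic kinesins stood low among the motors. Of 14 genes 3 reached 1 RPKM, where 31.6% of all protein-coding genes did, and 12 reached an exon-based value of 1, where 54.0% of all did. Their medians were 0.503 RPKM and 3.15 per kilobase of exon, above the 0.213 and 1.57 of all protein-coding genes. The highest by RPKM was Kif20a, the kinesin that recruits cytokinesis regulators to the central spindle, at 1.89 RPKM and 3.77 per kilobase of exon. Kif22, a chromokinesin that pushes chromosome arms, stood at 1.62 RPKM and 4.87 by exon. Kif11, also called Eg5, which slides antiparallel microtubules to keep the spindle bipolar, stood at 1.23 RPKM and was the highest of the class by exon at 7.52. These 3 were the members past 1 RPKM.

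The other detected mitotic kinesins lay between 0.937 and 4.14 by exon. Kifc1, the minus-end motor that focuses spindle poles, stood at 0.943 RPKM and 4.14 by exon. Kif2c, which depolymerises microtubules at centromeres, stood at 0.781 and 4.12, and Kif23, the motor of centralspindlin, at 0.744 and 2.91. The kinesin-8 genes, whose products set the length of spindle microtubules, stood at 0.620 RPKM and 3.40 by exon for Kif18b and at 0.181 and 1.12 for Kif18a. Kif15, which works beside Kif11, stood at 0.372 and 2.28, and Kif20b, a kinesin of late cytokinesis, at 0.332 and 2.54. The chromokinesin gene Kif4 stood at 0.194 RPKM and 3.58 by exon, and Kif14, a midbody kinesin, at 0.149 and 0.937. Kif2b was listed at 0, which for so short a gene allows up to 0.00713 RPKM. Kif4, with a span of 101.5 kb, was the eleventh of the class as deposited and the sixth by exon, and Kif20a, with a span of 8.66 kb, the first as deposited and the fifth by exon. The span of Kif14 was 65.2 kb in M21 and 89638 bases in RefSeq, so its values are less sure.

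Sequence limited 2 of these values in particular. The coding sequences of Kifc1 and its copy Kifc5b differed in 38 of 2022 aligned columns (98.1% identical), and Kifc5b stood at 0.386 RPKM. Of all 50-base windows in the transcripts of Kifc1, 44.8% also occurred in another gene's transcripts, and 42.1% of those of Kifc5b. How the authors treated reads that fit both copies is not known from the labels. Kif20a shared 27.3% of its windows, with Cdc23, and Kif4 16.2%, mostly with Pdzd11, and no other mitotic kinesin shared 10% or more.

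The kinesins classed here as axonal transport motors stood well above them. Of 9 heavy chains 8 reached 1 RPKM and all 9 an exon-based value of 1, where 31.6% and 54.0% of all protein-coding genes did. Their medians were 5.15 RPKM and 38.4 per kilobase of exon. Kif5a, Kif5b and Kif5c are the heavy chains of kinesin-1, the motor of fast anterograde transport, and stood at 9.96, 4.01 and 3.77 RPKM. By exon their order turned to Kif5c at 82.1, Kif5a at 53.6 and Kif5b at 20.7, since Kif5c spans 155.5 kb and the other genes 37.6 and 41.2 kb. Kif1a, which carries synaptic vesicle precursors, stood at 7.29 RPKM and 67.6 by exon, and Kif1b, which carries mitochondria and vesicle precursors, at 5.15 and 38.4. The kinesin-2 chains, which serve both axons and cilia, stood at 6.64 RPKM for Kif3c, 5.35 for Kif3a and 2.23 for Kif3b, and at 37.1, 51.6 and 16.6 by exon. Kif1c, a vesicle motor of many cell types, was the low member at 0.811 RPKM and 3.50 by exon.

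The mitotic median minus the axonal median was -3.15 on the log2(RPKM + 0.1) scale and -3.57 by exon. Of the 9 axonal genes 8 lay above every mitotic gene on both scales, with Kif1c the exception. As deposited, 10 of 14 mitotic genes lay below Kif1c, and by exon 8 of 14 did. The sum over the axonal genes was 45.2 RPKM against 9.44 for the mitotic genes, a ratio of 4.79, and by exon the ratio was 8.67. No replicate spread is available for the difference, so it is a description of these libraries. Counting error was small: an estimated 1823 reads or more lay behind every mitotic gene but Kifc5b (1122) and Kif2b (0), and 4784 or more behind every axonal gene. In bulk tissue fewer dividing cells and less RNA per cell cannot be told apart, so the low mitotic values do not say which holds. The 4 progenitor genes stood between 1.57 and 20.2 RPKM and the 4 neuronal genes between 5.02 and 156.4, and how far the mix of cells bears on the difference was not tested.

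**Figure D2:**
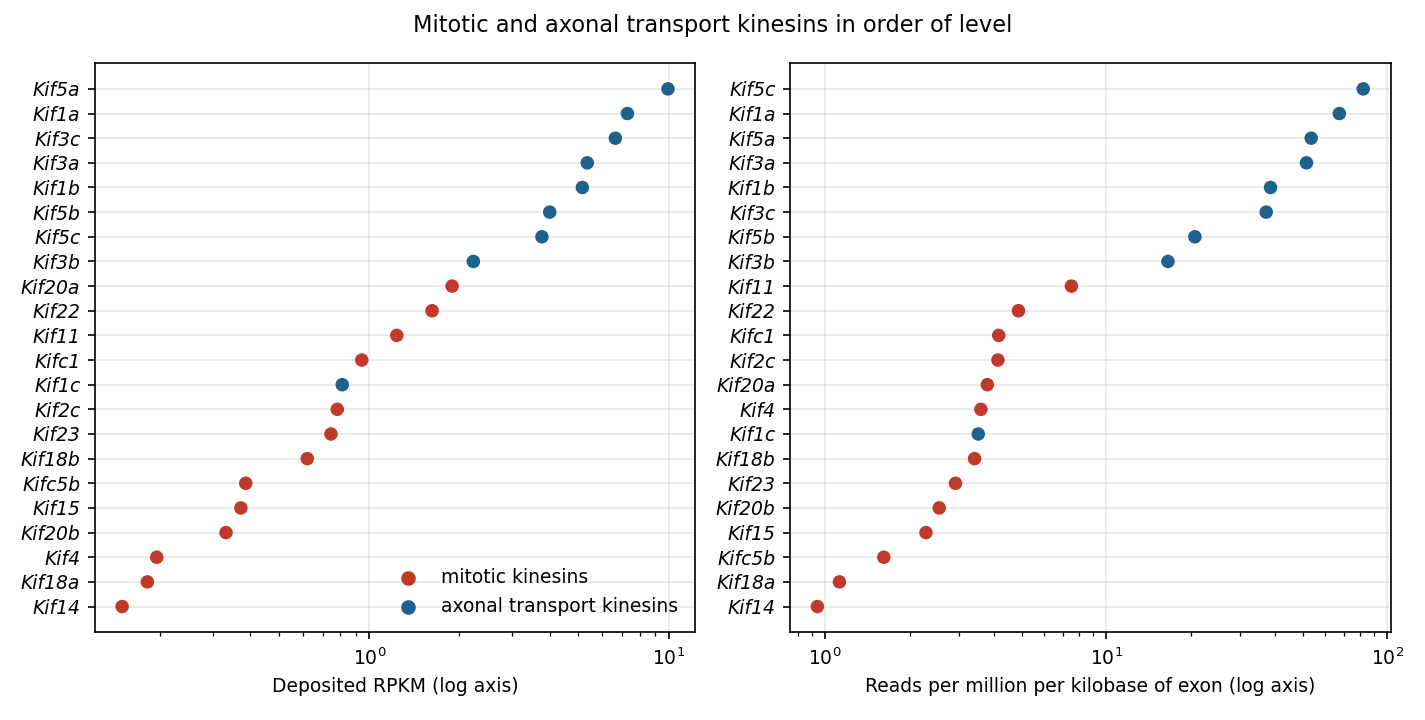
The 22 mitotic and axonal transport kinesin genes above 0 in order of level, as deposited RPKM (left) and as RPM per kilobase of exon (right), on log axes. Each point is the authors' mean of 3 libraries. Kif1c is the 1 axonal gene (blue) within the range of the mitotic genes (red), and the other 8 lie above Kif20a at 1.89 RPKM on the left and above Kif11 at 7.52 on the right.

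Matches to an element of the cell cycle were common in promoter windows of the mitotic genes and were not seen in the 8 axonal windows kept. The CHR (cell cycle genes homology region) is a short element bound by the MuvB complexes that hold genes of the late cell cycle silent in resting cells and turn them on before mitosis, and CCAAT boxes, bound by NF-Y, often lie upstream of it. Windows from 250 bases before to 50 after the RefSeq start (GRCm38.p6) were searched for TTTGAA or TTTAAA, as CHR, and for CCAAT, on both strands. TTTAAA is its own reverse complement, and a CHR and a CCAAT match can overlap by at most 1 base. Of the 70 motor genes 52 matched a RefSeq window by symbol. Windows were kept where the RefSeq start lay within 100 bases of the gene's 5′ end in M21. Of 10 mitotic windows, 8 held a CHR match and 7 a CCAAT match, and 6 held both. Of 8 axonal windows, from 7 genes, none held a CHR match and 4 a CCAAT match. The limit on the start set aside the windows of the mitotic genes Kif14, Kif2c and Kif4. Kif20a, Kif5a and Kif5b had no window. Of 12584 windows of all protein-coding genes kept by the same limit, 23.7% held a CHR match, 39.8% a CCAAT match and 9.47% both. With only 8 axonal windows, their lack of a CHR match was not tested against the 23.7%, and several other classes also held none. The 2 mitotic windows with no CHR match were those of Kif18a and Kif2b. Without the limit on the start, 11 of 13 mitotic and 1 of 9 axonal windows held a CHR match, the latter in a Kif1a window 19471 bases inside the gene. Kifc1 and Kifc5b are copies, so their windows are not independent. In the other classes CHR matches stood in 1 of 8 windows of ciliary and other kinesins and 1 of 4 of the dynein-1 chains, and in 0 of 6 of the dynein light chains, 4 of kinesin partners, 3 of other transport kinesins and 2 of dynactin. Without the limit on the start they stood in 2 of 9 windows of ciliary and other kinesins, 1 of 5 of the dynein-1 chains, 2 of 5 of dynactin and 1 of 1 of dynein-2, and in 0 of 7, 4 and 6 of the light chains, partners and other transport kinesins. A match is a description of letters and not a bound site.

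The windows of 3 mitotic genes with a CHR match near the start, and of 2 axonal genes, are shown from 100 bases before to 10 after the RefSeq start, 5′ to 3′, with CHR and CCAAT matches in capitals. They lie in GRCm38.p6 at chr19:37376282-37376391 (plus strand) for Kif11, chr11:102925115-102925224 (minus) for Kif18b, chr9:61946790-61946899 (minus) for Kif23, chr12:3365032-3365141 (plus) for Kif3c and chr2:49619186-49619295 (plus) for Kif5c.
Kif11: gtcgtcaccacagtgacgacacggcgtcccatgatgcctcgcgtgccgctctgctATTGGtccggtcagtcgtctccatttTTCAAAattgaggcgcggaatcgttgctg
Kif18b: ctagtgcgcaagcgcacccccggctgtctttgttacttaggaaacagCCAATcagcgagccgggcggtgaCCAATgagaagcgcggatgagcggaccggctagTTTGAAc
Kif23: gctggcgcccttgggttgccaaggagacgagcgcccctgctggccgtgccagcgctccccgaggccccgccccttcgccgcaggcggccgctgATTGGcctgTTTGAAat
Kif3c: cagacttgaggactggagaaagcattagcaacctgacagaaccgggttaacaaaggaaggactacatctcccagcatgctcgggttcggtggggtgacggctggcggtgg
Kif5c: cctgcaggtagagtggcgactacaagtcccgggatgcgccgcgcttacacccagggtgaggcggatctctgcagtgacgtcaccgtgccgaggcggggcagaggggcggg
In Kif11 a CCAAT match on the minus strand began at base -45 and a CHR match at -19. Kif18b had CCAAT matches at -53 and -30 and its CHR match 4 bases after the start. In Kif23 the elements lay at -7 and 3, and the windows of Kif3c and Kif5c held neither.

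**Figure D3:**
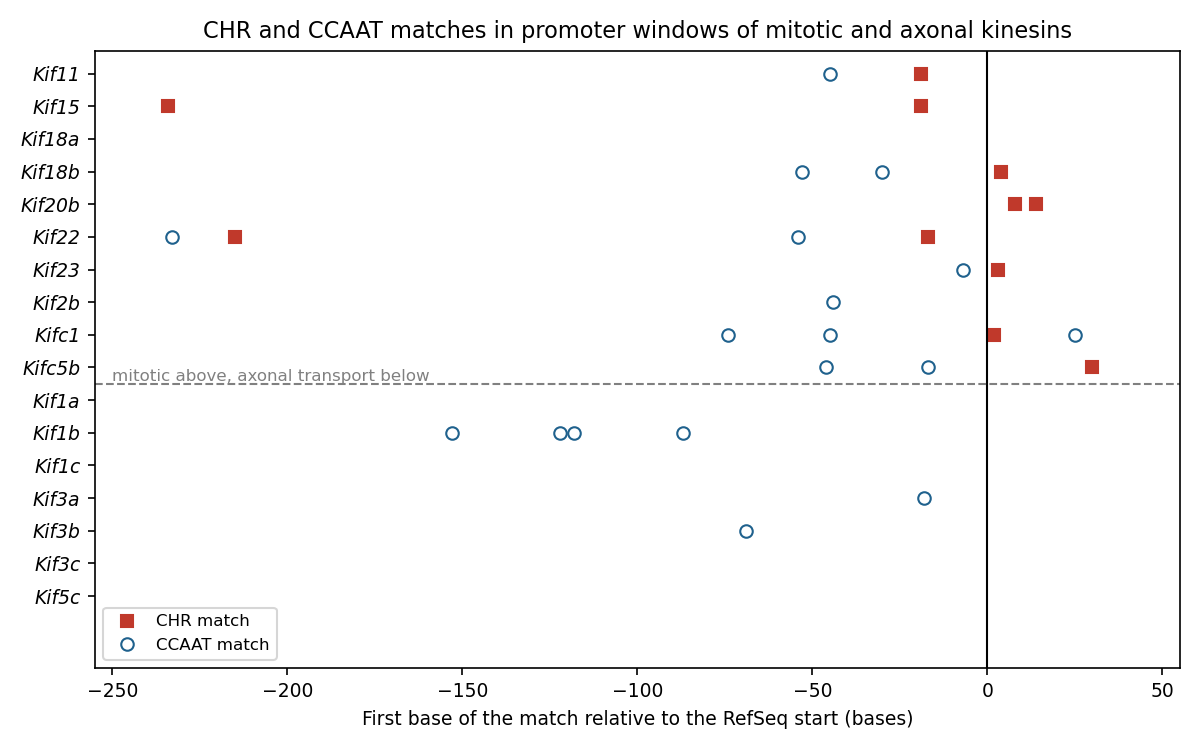
Position of CHR matches (red squares) and CCAAT matches (open blue circles) relative to the RefSeq start in the promoter windows of 10 mitotic and 7 axonal transport kinesin genes, in bases. Kif1b has 2 windows, so its 2 sites appear from both starts. All 8 mitotic windows with a CHR match have one within 50 bases of the start, as 6.27% of the windows of all protein-coding genes do. No axonal window shown has any.

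Of the 6 kinesin partners 5 passed 1 RPKM, which 31.6% of all protein-coding genes reached. The light chains bind cargo for kinesin-1, and Klc1 stood at 7.01 RPKM and 84.4 by exon, Klc2 at 6.61 and 17.3, Klc4 at 2.00 and 12.9 and Klc3, the low member, at 0.0750 and 0.274. Klc2 shared 11.3% and Klc3 17.2% of their 50-base windows with other genes. Kifap3, the cargo subunit of kinesin-2, stood at 1.53 RPKM but at 52.6 by exon, with a span of 137.5 kb. Kif1bp, which binds kinesins and was the 1 member that is neither a motor nor a motor subunit, stood at 1.57 and 12.8, with 11.3% of its windows shared and no RefSeq span to set beside that of M21.

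The chains of kinesin-2 had close sums by exon but not as deposited. Kif3a forms heterotrimers with Kif3b or Kif3c and Kifap3. By exon Kif3a stood at 51.6, Kif3b and Kif3c together at 53.7 and Kifap3 at 52.6, and as deposited at 5.35, 8.87 and 1.53 RPKM. The ratio of Kif3b and Kif3c to Kif3a was 1.04 by exon, 0.974 per kilobase of the longest coding transcript and 1.66 as deposited. In the same order that of Kifap3 to Kif3a was 1.02, 0.899 and 0.287. By reads with no length these ratios were 1.99 and 1.14, so neither held across the lengths. The heavy chains of kinesin-1 summed to 156.4 by exon and its light chains to 114.9, a ratio of 1.36, which was 0.995 by longest transcript and 1.13 as deposited. The sums were formed after the values were seen, and RNA levels give no amounts of protein. M21 and RefSeq spans of Kif3a and Kifap3 differ by more than 10%, and 42.3% of the windows of Kif3c are shared, mostly with the overlapping gene 1110002L01Rik, so these 3 values carry that uncertainty.

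**Figure D4:**
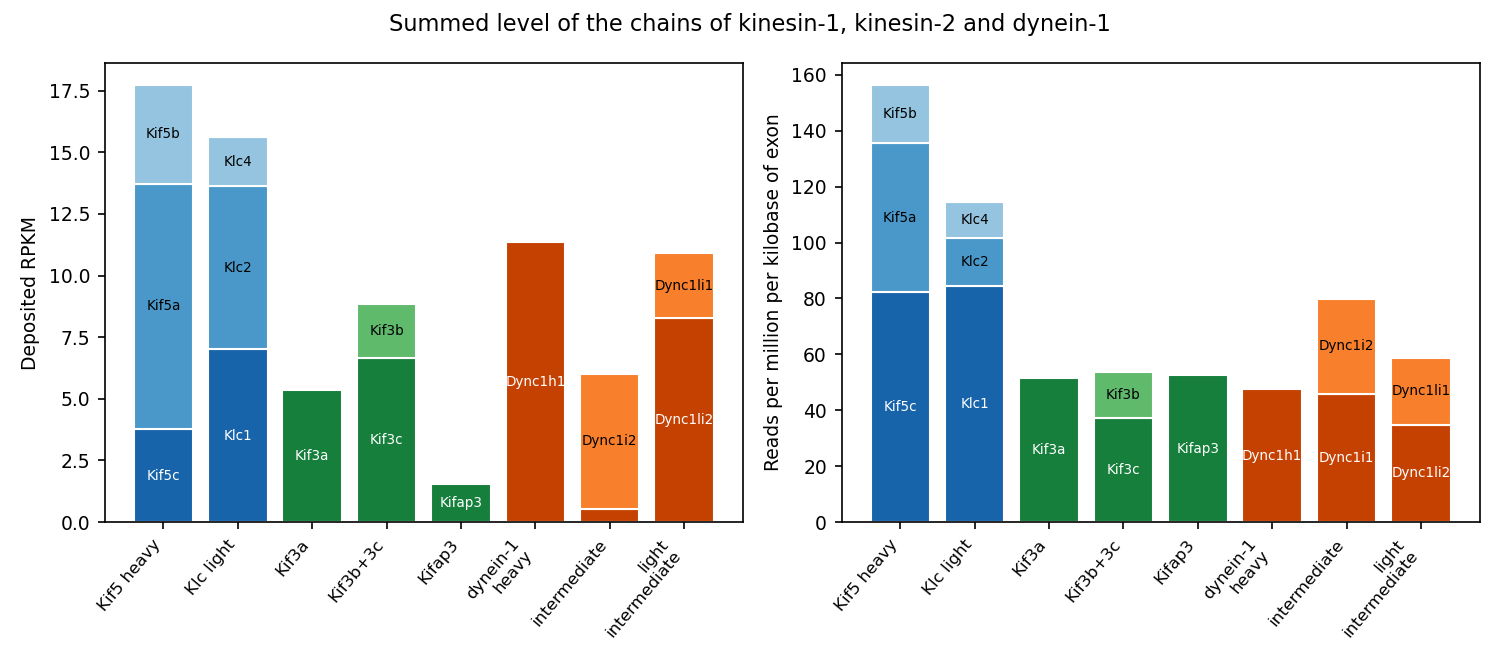
Summed level of the chains of kinesin-1 (blue), kinesin-2 (green) and dynein-1 (orange), as deposited RPKM (left) and as RPM per kilobase of exon (right), each from the authors' mean of 3 libraries, with stacked genes named where there is room. On the right the 3 kinesin-2 bars stand at 51.6, 53.7 and 52.6, and on the left at 5.35, 8.87 and 1.53.

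Of the 5 core chains of dynein-1, the motor of retrograde transport, 4 passed 1 RPKM and all 5 an exon-based value of 10. These levels were reached by 31.6% and 20.8% of all protein-coding genes. Its heavy chain gene Dync1h1 stood at 11.4 RPKM and 47.6 by exon. The intermediate chains, which bind dynactin, stood at 5.49 RPKM for Dync1i2 and 0.540 for Dync1i1. By exon Dync1i1, a gene of 302.4 kb, was the higher at 45.7 against 34.2, while by longest coding transcript it was lower at 60.1 against 107.6, so their order rests on the length taken. The light intermediate chains, which bind cargo adaptors, stood at 8.28 RPKM for Dync1li2 and 2.62 for Dync1li1, and at 34.8 and 24.04 by exon, the same order on all 4 scales tried. Intermediate chains summed to 1.68 times and light intermediate chains to 1.24 times the heavy chain by exon, to 3.23 and 1.56 times by longest transcript and to 0.53 and 0.958 times as deposited, so neither ratio held across the lengths.

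Both chains of dynein-2, the motor of cilia, that the rule found stood under 1 RPKM. That level was reached by 31.6% of all protein-coding genes. Both chains passed an exon-based value of 1, as 54.0% of all protein-coding genes did. The dynein-2 heavy chain gene Dync2h1 stood at 0.187 RPKM and 2.93 by exon and Dync2li1 at 0.373 and 5.80. Dync1h1 was 60.8-fold above Dync2h1 as deposited (95% counting interval 59.5 to 62.1) and 16.3-fold by exon.

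The light chains ranged from 0.00492 to 46.8 RPKM, and 5 of 7 passed 1 RPKM, which 31.6% of all protein-coding genes reached. Dynll1 and Dynll2 encode LC8, which also binds many proteins outside dynein, and stood at 46.8 and 30.8 RPKM but at 46.8 and 90.3 by exon. Their ratio was 1.52 as deposited, 0.518 by exon and 0.898 by longest transcript. The span of Dynll2 was 8.01 kb in M21 and 24293 bases in RefSeq, so its estimated reads and its values by exon and transcript are uncertain. The roadblock chain gene Dynlrb1 stood at 6.46 RPKM and 88.0 by exon, while Dynlrb2, a gene of ciliated cells, stood at 0.00492 RPKM from an estimated 10 reads. Their ratio was 1313, with a 95% counting interval of 721 to 2767. The ciliated cell genes were spread, with Foxj1 at 0.803 and Rsph1 at 0.00787 RPKM, both above Dynlrb2, and Ccdc153 listed at 0.

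Of the Tctex light chains Dynlt1c stood at 8.70, Dynlt3 at 1.95 and Dynlt1a at 0.584 RPKM. The values of Dynlt1a and Dynlt1c are those of nearly the same sequence. Over all 339 coding bases Dynlt1c and Dynlt1f were identical to Dynlt1a and Dynlt1b differed in 1, and 93.7% of the 50-base windows of Dynlt1c and 69.1% of those of Dynlt1a occurred in another gene. The first 90 coding bases are shown for Dynlt1a and Dynlt1b, and for Dynll1 and Dynll2 as a pair that reads can tell apart, in GENCODE M21 transcripts, 5′ to 3′, with capitals for bases of the second gene that differ from the first.
Dynlt1a: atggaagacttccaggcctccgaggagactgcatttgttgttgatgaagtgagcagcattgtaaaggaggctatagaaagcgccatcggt
Dynlt1b: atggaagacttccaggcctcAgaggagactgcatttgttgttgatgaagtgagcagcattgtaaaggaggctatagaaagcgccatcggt
Dynll1: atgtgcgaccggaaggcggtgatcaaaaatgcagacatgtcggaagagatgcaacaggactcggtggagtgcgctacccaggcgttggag
Dynll2: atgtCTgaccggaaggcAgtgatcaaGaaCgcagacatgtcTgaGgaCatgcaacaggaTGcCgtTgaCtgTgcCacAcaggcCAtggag
Dynll1 and Dynll2 differed in 18 of these 90 bases and in 50 of all 267 coding bases (81.3% identical), and shared 3.12% of Dynll1 windows and 0 of Dynll2 windows with any other gene. No value for a single Dynlt1 copy is compared with another here.

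All 6 dynactin genes passed 1 RPKM, which 31.6% of all protein-coding genes reached. Dctn2, or dynamitin, of the shoulder that joins the arm to the filament, was the highest at 12.8 RPKM and 41.5 by exon. Dctn1, whose product p150Glued binds microtubules and dynein, stood at 6.86 and 36.1, and Dctn3, the small shoulder subunit, at 6.82 and 54.8. The pointed-end subunits were the lower 3, with Dctn5 at 4.06 and 24.5, Dctn4 at 3.03 and 8.53 and Dctn6 at 1.64 and 10.6. That order of shoulder and arm above pointed end held on both scales. The filament itself is built of the actin-related protein Arp1, and its gene Actr1a was the highest of the dynein regulators and dynactin filament genes.

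The 9 other transport kinesins, kept apart from the axonal class, ranged from 0.0241 to 17.8 RPKM. Their medians were 0.545 RPKM and 9.86 by exon, against 0.503 and 3.15 for the mitotic class. As deposited they thus stood near the mitotic kinesins, so the difference between mitotic and axonal motors holds for the axonal class as chosen. Kif21b, which restrains microtubule growth and is enriched in neurons, stood at 17.8 RPKM and 68.1 by exon, the highest kinesin as deposited. Its relative Kif21a, chosen as its pair, stood at 1.62 and 29.2, a ratio of 0.0911 as deposited and 0.429 by exon. Kifc2, a kinesin-14 of neurons, stood at 4.65 RPKM and 9.86 by exon, and Kif2a, the depolymerising kinesin that prunes axon branches, at 2.08 and 20.6, with 19.8% of its windows shared, mostly with Dimt1. Kif2a was 2.67-fold above Kif2c, its relative in the mitotic class, as deposited and 5.00-fold by exon. Kif2a itself was not counted as mitotic. By exon it stood above the axonal gene Kif3b (16.6). The 8 axonal genes thus lie above every mitotic gene by exon only with Kif2a kept out of the mitotic class. The lowest of the other transport kinesins was Kif17, a kinesin of dendrites and cilia, at 0.0241 RPKM. In this class 4 of the 9 genes passed 1 RPKM, which 31.6% of all protein-coding genes reached. Kifc3, Kif13a, Kif13b and Kif16b lay between, from 0.545 down to 0.0271 RPKM.

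The ciliary and other kinesins were the lowest class, with a median of 0.0435 RPKM and 0.549 by exon. Among these 10 genes 1 reached 1 RPKM, where 31.6% of all protein-coding genes did. That gene was Kif26a, an atypical kinesin without ATPase activity, at 4.81 RPKM and 24.7 by exon, above every mitotic kinesin on both scales. Kif7, the kinesin of the hedgehog pathway at the cilium tip, stood at 0.556 and 2.14 with 16.1% of its windows shared, and Kif24, which restrains the formation of cilia, at 0.102 and 0.939. The lowest detected was Kif28 at 0.000879 RPKM from an estimated 8 reads, and Kif12 rested on 3 reads, about what a count of 0 allows. Kif26b, Kif27, Kif9, Kif19a and Kif6 lay between, from 0.0981 down to 0.00268 RPKM.

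**Figure D5:**
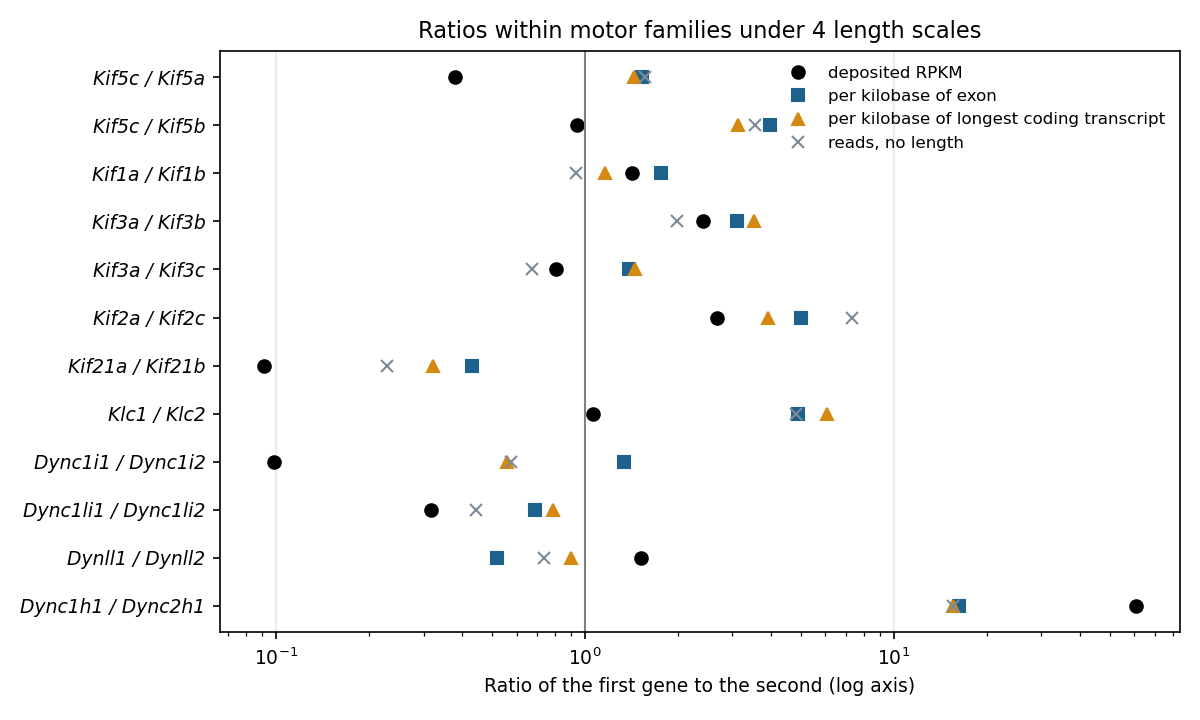
Ratio of 12 pairs of related motor genes on a log axis, as deposited RPKM (black circles), per kilobase of exon (blue squares), per kilobase of the longest coding transcript (orange triangles) and by reads with no length (grey crosses). The vertical line marks a ratio of 1. Kif5c to Kif5a moves from 0.379 as deposited to 1.53 by exon and Dynll1 to Dynll2 from 1.52 to 0.518, while Dync1h1 stays at least 15.5-fold above Dync2h1.

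Genes that work with the mitotic motors had a lower median than the axonal adaptors on both scales, with ranges that overlapped. Against the dynein regulators and dynactin filament genes their median was higher as deposited and lower by exon. Of all protein-coding genes 31.6% reached 1 RPKM. Of 16 partners of the mitotic kinesins 12 reached 1 RPKM, with medians of 1.87 RPKM and 6.65 by exon, from the importin gene Kpna2 (6.47 RPKM) and the proliferation marker Mki67 (6.02) to Ect2, the cytokinesis exchange factor, at 0.454. Of 18 axonal adaptors and activators 13 reached 1 RPKM, with medians of 2.52 RPKM and 14.1 by exon, from the JIP scaffold genes Mapk8ip2 (15.4) and Mapk8ip1 (9.35) to Map7 (0.0260). Of 19 dynein regulators and dynactin filament genes 12 reached 1 RPKM, with medians of 1.55 RPKM and 10.4 by exon, led by Actr1a (15.2) and the lissencephaly gene Pafah1b1 (7.51), with Rilp lowest at 0.168.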

How the data were processed

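RNA was extracted from E16.5 cortex and made into TruSeq libraries, per the labels' protocols. The authors deposited 1 column of RPKM, a mean over the group to which the labels assign 3 libraries. Per the submitters' processing notes, the series used DESeq 1.16.0, Cuffdiff 2.0.2, Bowtie2 2.1.0, HTSeq 0.6.0 and TopHat2 2.0.9 on build mm9, and which made the RPKM is not stated, nor are strand, read length and the handling of reads with several matches.

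Symbols, spans and exon lengths came from GENCODE M21, on a later build than mm9, so no coordinates of the authors' genes are given. The RPKM values were multiplied by the gene's end minus start to give RPM, then divided by the union of exons or by the longest protein-coding transcript. Spans were within 10% of RefSeq's for 59 of 68 members, differed for 8 and had no match for 1. Depths of 51.3, 64.8 and 71.6 M reads were read from the 3 fullest peaks of low values, a step tested on simulated data. The simulation made and read its values with the same M21 lengths, so it did not test a mismatch with the authors' lengths. Reads per gene are RPKM times length times summed depth, and 95% intervals (exact Poisson, or Clopper-Pearson for ratios) and floors cover counting error only. Coding sequences, the longest of each gene, were aligned globally.

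Named were all members of the mitotic, axonal, partner, dynein and dynactin classes, the 3 highest and the lowest of the other classes, and the 2 highest and the lowest of the other lists. A cortical marker that this rule names is not reported here, and Tbr1 is given beside the others. Members, classes and lists were chosen with earlier results of these data known, and Kif12, the other members named, the motif search, the shown sequences and the subunit sums after the values were seen. The pseudocount was 0.1. Alternatives were other pseudocounts, filters, lengths and class members. Python 3.11.15, NumPy 2.4.6, pandas 2.3.3 and SciPy 1.17.1 were used.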

Additional observations from a re-analysis of the deposited data

How the results depend on the processing

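The mitotic median minus the axonal median kept its sign in every setting tried. No setting added the other transport kinesins to the axonal class or Kif2a to the mitotic class. As deposited (-3.15) it was -2.04 with a pseudocount of 1, -3.37 with 0.01, -2.87 with members above 0 or at 0.1 RPKM and above only, -2.88 with means, -3.26 without the highest member of each class, -2.97 with light chains and Kifap3 added or without Kif3a, Kif3b and Kif3c, -2.75 without Kif2b and Kifc5b, -2.69 with genes whose lengths agree (chosen after seeing the data) and -4.004 with no length. By exon (-3.57) it was, in the same order, -3.25, -3.61, -3.46, -3.74, -3.66, -3.55 with light chains and -3.81 without kinesin-2, -3.43 and -3.44, and -3.77 by longest transcript. Motor genes at 1 or more were 36 as deposited, 45 at 0.5, 27 at 2 RPKM and 55 by exon. The order of 5 of 13 pairs turned by exon, 4 with no length and 4 by longest transcript (chosen after seeing the data). Kif5c to Kif5a was 0.379 as deposited and 1.53, 1.57 and 1.44 in these settings, Kif5c to Kif5b 0.942 and then 3.97, 3.56 and 3.13, and Dynll1 to Dynll2 1.52 and then 0.518, 0.737 and 0.898. Kif3a to Kif3c (0.805) turned to 1.39 by exon and 1.45 by transcript, Dync1i1 to Dync1i2 (0.0985) to 1.34 by exon, and Kif1a to Kif1b (1.42) to 0.931 with no length. The reads behind each ratio are the same in all settings, and only the length differs. These reads were rebuilt from the deposited values with M21 spans. A wrong span would thus change every ratio but the deposited one, also that with no length. No paired analysis was possible because 1 mean column holds no single library, and leaving out a library was not possible for the same reason. Depth limits only Kif12, Kif28, Dynlrb2 and Kif2b, which rest on 10 or fewer estimated reads.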
